A study of Saccharomyces cerevisiae with 32 samples.

Results

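Oligosaccharyltransferase (OST) is the enzyme of the endoplasmic reticulum (ER) membrane that moves a preassembled sugar chain from a lipid carrier onto asparagines of proteins entering the secretory pathway. In budding yeast it is built from 3 subcomplexes: Ost1 with Ost5, the catalytic Stt3 with Ost4 and either Ost3 or Ost6, and Wbp1 with Swp1 and Ost2. Ost2, Ost4 and Ost5 are small membrane proteins, and Ost4 is among the shortest proteins of the cell. Ost3 and Ost6 are related, mutually exclusive subunits with a thioredoxin-like domain, so that 2 forms of the enzyme exist side by side. Ded1 and its relative Dbp1 are DEAD-box RNA helicases, and Ded1 helps ribosomes to start on messenger RNAs.

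The 9 OST subunit genes were taken by their reading frame names: OST1 (YJL002C), OST2 (YOR103C), OST3 (YOR085W), OST4 (YDL232W), OST5 (YGL226C-A), OST6 (YML019W), STT3 (YGL022W), SWP1 (YMR149W) and WBP1 (YEL002C). Of the 5446 genes listed in any of the 6 deposited tables, 8 are members. STT3 was not analysed here. All 8 passed a level minimum of 50 in every comparison, and none overlaps another gene in the reference annotation.

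Ribosome footprints (RNA fragments protected by ribosomes) and mRNA were sequenced from 8 yeast strains in 3 experiments, with 2 libraries per strain and assay. At 15 °C the strains were ded1-cs, a cold-sensitive mutant, ded1-cs carrying high-copy DBP1 (hcDBP1), and the WT strain DED1-CS. One experiment at 37 °C held the heat-sensitive mutant ded1-ts, ded1-ts with hcDBP1 and the WT strain DED1-TS. The other experiment at 37 °C held the double mutant ded1-ts dbp1Δ and the single deletion dbp1Δ, and the WT that its tables are set against was used here only through the deposited changes. All cultures grew in SC medium to an OD600 near 0.7, were shifted to the named temperature, and were given 100 µg/ml cycloheximide for the last 2 min. The labels mention selection for plasmids but do not say which strains carry one, nor whether a strain stands for 1 clone.

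The authors deposited 1 normalized log2 level per gene, strain and assay, which pools the 2 libraries, and log2 changes of each mutant over its WT. No spread between libraries can be given, so no difference below was tested. Genes are called higher from a log2 change of 1 (2-fold) upward and lower from -1 downward. Changes in translational efficiency are footprint changes less mRNA changes, all on the log2 scale. Levels rest on gene length as well as abundance, so levels of different genes are not compared. On the linear scale, the levels of a strain and assay added up to 5651054 at the least and 48359134 at the most, and read depth is unknown. As a check of the strains, the authors' deposited table gives DBP1 mRNA at 5.85 in ded1-cs with hcDBP1 over DED1-CS, at 6.89 in ded1-ts with hcDBP1 over DED1-TS, and at -6.21 in dbp1Δ over its WT. DED1 mRNA stood at 1.37 in ded1-cs over DED1-CS, at -1.17 in ded1-ts over DED1-TS and at -2.63 in dbp1Δ over its WT in the authors' deposited table. The ded1 mutants keep a DED1 gene, so its level is no check of them.

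In ded1-cs at 15 °C the subunit genes split within each subcomplex. The genes for the larger subunits had fewer footprints than in DED1-CS, up to 8.38-fold fewer for OST1, while OST4 and OST5 had more than 2-fold more. In mRNA all 8 members lay between -0.35 and 0.23 on the log2 scale in the authors' deposited table. The split was thus one of footprints more than of mRNA. With hcDBP1 in ded1-cs it was smaller in the Ost1 and catalytic subcomplexes. In the Wbp1 subcomplex the log2 footprint ratio of OST2 over WBP1 stood at 0.95 with hcDBP1 and 0.94 without. That of OST2 over SWP1 stood at 1.00 with hcDBP1 and 1.20 without. At 37 °C no member passed 2-fold in ded1-ts.

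The Ost1 subcomplex held the members that lay farthest apart. OST1, whose product is a lumenal subunit anchored in the membrane, had a log2 footprint level of 9.5 in ded1-cs, against 12.62 in DED1-CS. Its log2 mRNA level was 12.2 in ded1-cs, against 12.5 in DED1-CS. The authors' deposited table gives OST1 footprints at -3.07 and translational efficiency at -2.72, a 6.58-fold lower efficiency at the 1.33 percentile of all analysed genes. OST5, the small partner of Ost1, went the other way. Its log2 footprint level was 11.5 in ded1-cs, against 10.26 in DED1-CS, with log2 mRNA levels of 9.6 in ded1-cs and 9.5 in DED1-CS. OST5 footprints stood at 1.23 and its translational efficiency at 1.10, the 86.8 percentile, in the authors' deposited table. The footprint ratio of OST5 over OST1 was therefore 19.7-fold higher in ded1-cs than in DED1-CS, and the mRNA ratio 1.39-fold higher.

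**Figure D1:**
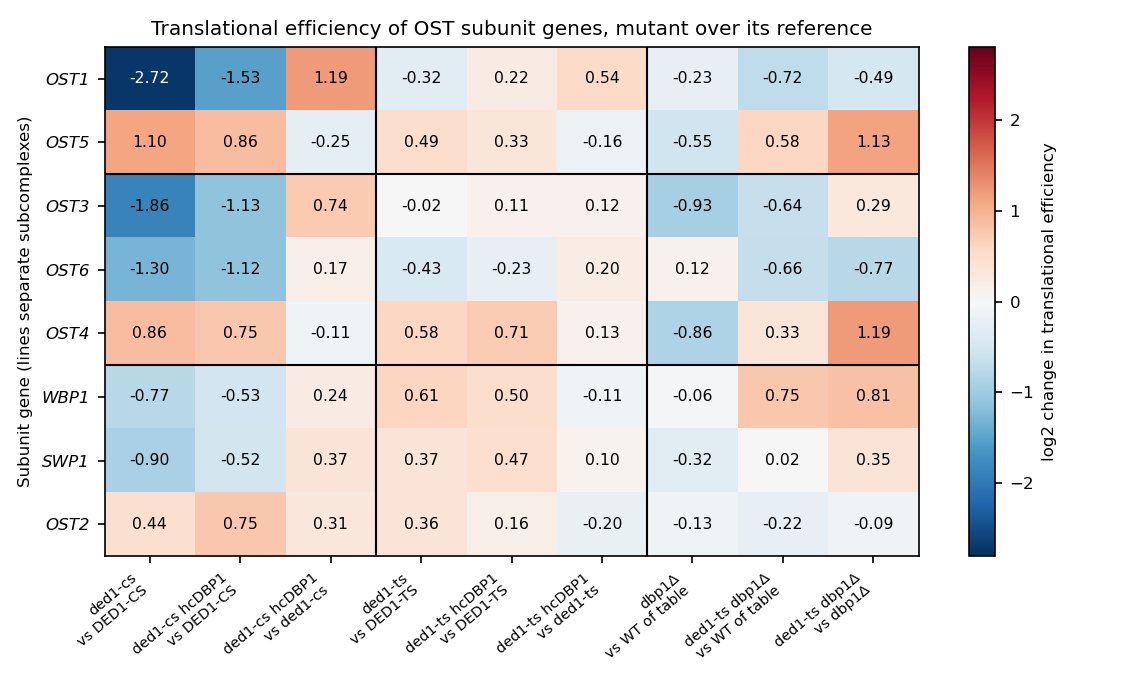
Log2 change in translational efficiency (colour and printed value) of the 8 analysed subunit genes (rows, grouped by subcomplex) in the 9 comparisons (columns, grouped by experiment), each a mutant or hcDBP1 strain over its reference. OST1 in ded1-cs over DED1-CS is the lowest value at -2.72, and OST4 in ded1-ts dbp1Δ over dbp1Δ and OST1 in ded1-cs hcDBP1 over ded1-cs are the highest at 1.19.

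In the catalytic subcomplex, both forms of the exchangeable subunit had fewer footprints in ded1-cs. OST3 had a log2 footprint level of 9.9 in ded1-cs, against 11.87 in DED1-CS, while its log2 mRNA level was 10.6 in ded1-cs and 10.7 in DED1-CS. OST6 had a log2 footprint level of 8.8 in ded1-cs, against 9.92 in DED1-CS, and a log2 mRNA level of 10.6 in ded1-cs, against 10.4 in DED1-CS. The authors' deposited table puts translational efficiency at -1.86 for OST3 and -1.30 for OST6. OST3 thus lost more than OST6, and the footprint ratio of OST3 over OST6 in ded1-cs was 0.528 times that in DED1-CS. OST4, a short subunit held next to Stt3, had a log2 footprint level of 9.8 in ded1-cs, against 8.75 in DED1-CS, and a log2 mRNA level of 8.0 in ded1-cs, against 7.8 in DED1-CS. OST4 footprints stood at 1.09 and translational efficiency at 0.86 in the authors' deposited table, so its efficiency stayed short of 2-fold. The footprint ratio of OST4 over OST3 was 8.49-fold higher in ded1-cs than in DED1-CS, and that of OST4 over OST6 4.48-fold higher.

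The Wbp1 subcomplex showed the same order with smaller sizes. WBP1, a subunit essential for growth, had a log2 footprint level of 11.8 in ded1-cs, against 12.54 in DED1-CS, at a log2 mRNA level of 12.0 in both strains. SWP1, its essential partner, had a log2 footprint level of 10.7 in ded1-cs, against 11.72 in DED1-CS, and a log2 mRNA level of 11.3 in ded1-cs, against 11.5 in DED1-CS. Translational efficiency stood at -0.77 for WBP1 and -0.90 for SWP1 in the authors' deposited table, both short of 2-fold. OST2, the small subunit of this group, had a log2 footprint level of 10.3 in ded1-cs, against 10.09 in DED1-CS, and a translational efficiency of 0.44 in the authors' deposited table. That positive sign turned with the scaling: with columns set to equal totals OST2 stood at -0.15 in efficiency and -0.35 in footprints. The footprint ratio of OST2 over SWP1 was 2.30-fold higher in ded1-cs than in DED1-CS and that of OST2 over WBP1 1.91-fold higher, while WBP1 over SWP1 was 1.20-fold higher. Ratios between genes of the same library do not depend on the scaling. The pairs were chosen after the values were seen.

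**Figure D2:**
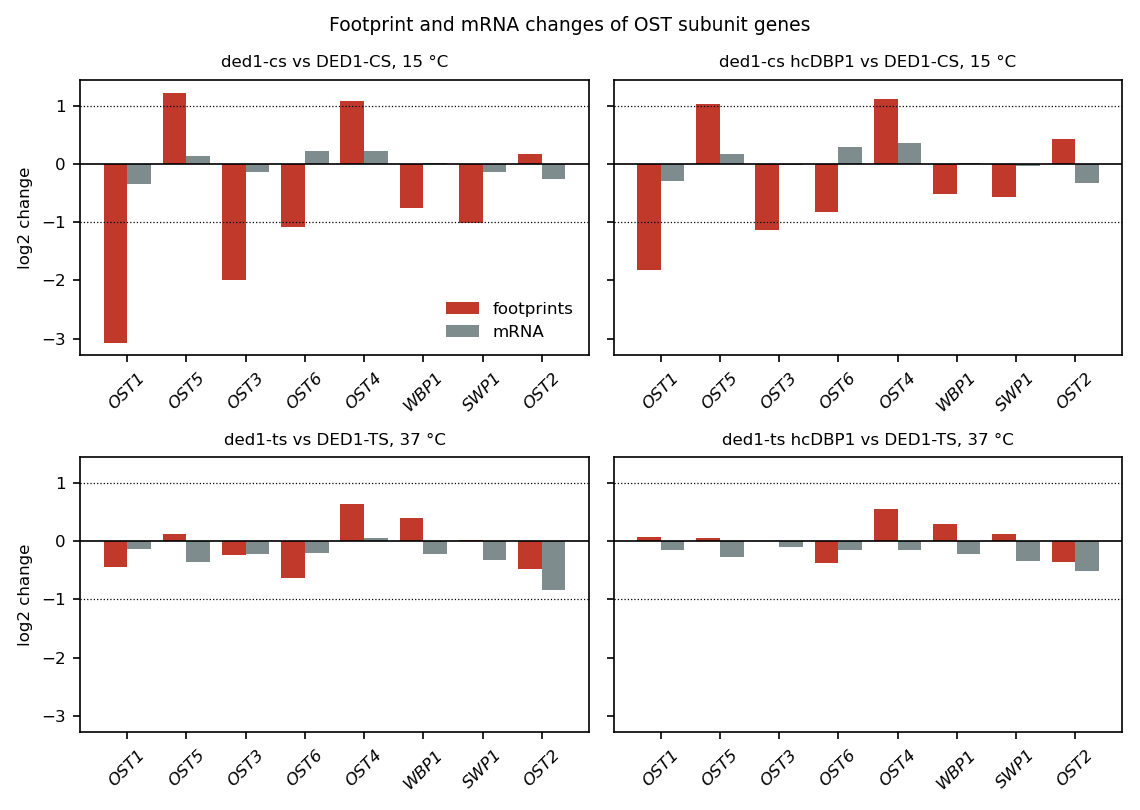
Log2 changes of footprints (red) and mRNA (grey) of the 8 subunit genes, in 4 panels, for ded1-cs and ded1-cs hcDBP1 over DED1-CS at 15 °C and for ded1-ts and ded1-ts hcDBP1 over DED1-TS at 37 °C. Each bar is 1 deposited value from pooled libraries, with no error bar, and dotted lines mark 2-fold. In ded1-cs the red bars run between -3.07 and 1.23, while the grey bars stay between -0.35 and 0.23.

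Counted over the members, 4 of 8 were lower in footprints in ded1-cs (OST1, OST3, OST6 and SWP1) and 2 higher (OST4 and OST5). Among the 5076 genes analysed there, 20.2% were lower and 14.0% higher in footprints. In translational efficiency 3 of 8 members were lower and 1 higher, beside 21.9% lower and 16.4% higher over all genes. All genes spread widely in this comparison, and whether the counts of members differ from these shares was not tested. In mRNA 0 of 8 members passed 2-fold, beside 2.11% of all genes in either direction. The median translational efficiency of the 8 members was -0.83, against 0.10 over all genes. The members ran from -2.72 to 1.10, and the 5 and 95 percentiles of all genes were -2.11 and 1.38. Of the members only OST1 lay outside those percentiles. With columns set to equal totals every gene shifts by -0.59 in efficiency in this comparison, and OST5 at 0.51 no longer passes 2-fold while SWP1 at -1.49 and WBP1 at -1.36 do. OST4 footprints fall short of 2-fold at 0.99 under median centring.

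**Figure D3:**
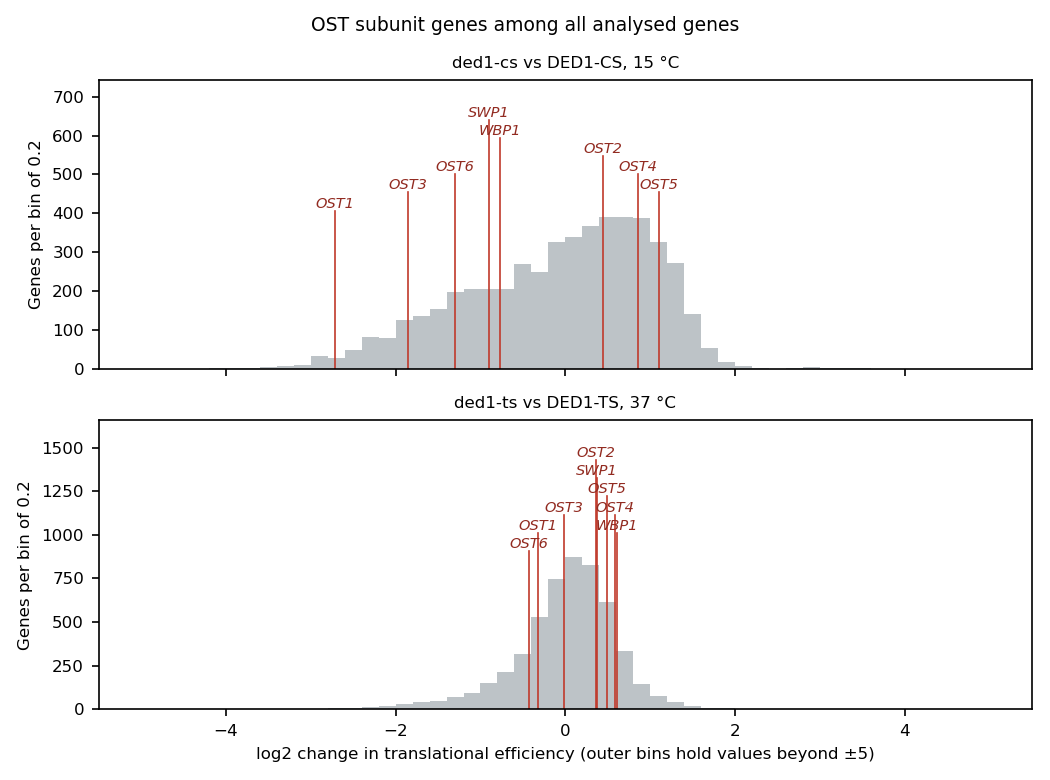
Number of analysed genes per bin of log2 change in translational efficiency (grey bars, bins of 0.2) in ded1-cs over DED1-CS (top) and ded1-ts over DED1-TS (bottom), with red lines at the 8 subunit genes. The members span -2.72 to 1.10 in ded1-cs and -0.43 to 0.61 in ded1-ts.

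A split by size, made after the values were seen, describes the pattern. In ded1-cs the small subunit genes OST2, OST4 and OST5 had translational efficiencies between 0.44 and 1.10. The other 5 lay between -2.72 and -0.77, so the groups did not overlap. The facing limits of the groups, OST2 at 0.44 and WBP1 at -0.77, lay at the 62 and 26.4 percentiles of all genes. The same held in ded1-cs with hcDBP1 over DED1-CS, which shares the DED1-CS libraries, with 0.75 to 0.86 for the small and -1.53 to -0.52 for the other members. In the other 7 of the 9 comparisons the groups overlapped in translational efficiency. In mRNA they overlapped in all 9. For ded1-cs over DED1-CS, 16.4% of all 5076 genes passed 2-fold upward in efficiency and 21.9% downward. Protein lengths were not computed, so small genes could not be set against the others over all genes. Whether the split is particular to these subunits was not tested.

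High-copy DBP1 in ded1-cs asks whether Dbp1 can stand in for Ded1. With hcDBP1, the members lowest in ded1-cs had more footprints than in ded1-cs, and OST1 moved farthest. By difference of the deposited changes, OST1 footprints in the hcDBP1 strain were 2.36-fold those of ded1-cs, and its translational efficiency stood at 1.19, the 99.0 percentile of all genes. OST3 followed with 0.85 in footprints and 0.74 in translational efficiency. SWP1 at 0.37, OST2 at 0.31, WBP1 at 0.24 and OST6 at 0.17 were smaller, and OST4 at -0.11 and OST5 at -0.25 lay below 0 in translational efficiency. OST6 thus differed from its counterpart OST3, the footprint ratio of OST3 over OST6 being 1.52-fold higher with hcDBP1 than in ded1-cs. The sign for OST4 turned to 0.06 with equal column totals.

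In footprints 1 of 8 members, OST1, was higher with hcDBP1 than in ded1-cs, beside 3.01% of all genes, and the same 1 of 8 in translational efficiency, beside 2.13%. In mRNA 0 of 8 passed 2-fold, beside 0.355% in either direction, and the members lay between -0.06 and 0.14. The libraries of ded1-cs enter both this difference and the low values above, so these values are not independent of each other.

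Set against DED1-CS, ded1-cs with hcDBP1 had OST1, OST3 and OST6 lowest and OST5 highest in translational efficiency, as in ded1-cs alone. OST1 and OST3 lay nearer to DED1-CS than without hcDBP1, while OST2 lay farther from it, at 0.43 in footprints with hcDBP1 and 0.18 without. That order for OST2 turned with columns set to equal totals, at 0.02 with hcDBP1 and -0.35 without. OST1 had a log2 footprint level of 10.7 in the hcDBP1 strain, against 12.51 in DED1-CS, and OST3 had 10.6 in the hcDBP1 strain, against 11.76 in DED1-CS. OST5 had 11.2 in the hcDBP1 strain, against 10.15 in DED1-CS, and OST4 had 9.8 in the hcDBP1 strain, against 8.64 in DED1-CS. Translational efficiency in the authors' deposited table was -1.53 for OST1, -1.13 for OST3, -1.12 for OST6, -0.53 for WBP1, -0.52 for SWP1, 0.75 for OST2 and OST4 and 0.86 for OST5. OST1 and OST3 were thus still lower than in DED1-CS, and OST6 was barely nearer to DED1-CS than without hcDBP1.

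In that comparison 3 of 8 members were lower and 0 higher in translational efficiency, beside 13.1% lower and 9.21% higher of 5072 genes. In footprints 2 of 8 were lower and 2 higher, beside 11.0% lower and 5.80% higher. The higher footprint calls of OST4 and OST5 fall short of 2-fold with median centring, at 0.99 and 0.91. In mRNA 0 of 8 passed, beside 1.44% in either direction. The footprint ratio of OST5 over OST1 was 7.28-fold that of DED1-CS with hcDBP1, and 19.7-fold without it.

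**Figure D4:**
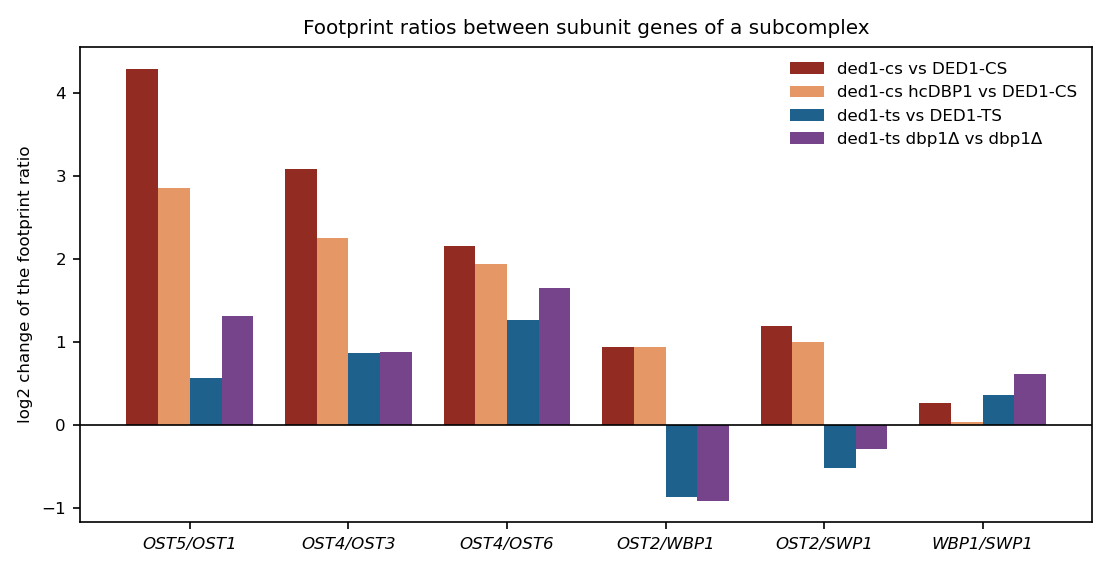
Log2 change of the footprint ratio between subunit genes of the same subcomplex (x axis, 6 ratios) for ded1-cs over DED1-CS, ded1-cs hcDBP1 over DED1-CS, ded1-ts over DED1-TS and ded1-ts dbp1Δ over dbp1Δ (bar colours). OST5/OST1 and the OST4 ratios lie above 0 in all 4, while OST2/WBP1 and OST2/SWP1 lie above 0 at 15 °C and below 0 at 37 °C.

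In ded1-ts at 37 °C the members lay close together, and WBP1 and SWP1 stood on the other side of 0 from ded1-cs. WBP1 had a log2 footprint level of 13.68 in ded1-ts, against 13.28 in DED1-TS, and a log2 mRNA level of 12.3 in ded1-ts, against 12.5 in DED1-TS. SWP1 footprints were near equal, at 12.41 in ded1-ts and 12.38 in DED1-TS, with log2 mRNA levels of 11.7 in ded1-ts and 12.1 in DED1-TS. Translational efficiency stood at 0.61 for WBP1 and 0.37 for SWP1 in the authors' deposited table.

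OST4 and OST5 lay above 0 here as at 15 °C. OST4 had a log2 footprint level of 11.11 in ded1-ts, against 10.47 in DED1-TS, and OST5 had 11.07 in ded1-ts, against 10.95 in DED1-TS. Their translational efficiencies were 0.58 and 0.49 in the authors' deposited table. For OST5 the footprints stood at 0.13 and the mRNA at -0.36, so lower mRNA entered its value. OST2 also had a positive value, 0.36, but its footprints stood at -0.47 and its mRNA at -0.83 in the authors' deposited table, the lowest mRNA change of the 8.

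OST1, OST3 and OST6 lay below 0 in ded1-ts too, by less than in ded1-cs. OST1 had a log2 footprint level of 12.76 in ded1-ts, against 13.20 in DED1-TS, and a translational efficiency of -0.32 in the authors' deposited table. OST6 had a log2 footprint level of 10.08 in ded1-ts, against 10.71 in DED1-TS, and the lowest efficiency of the members, -0.43, in the authors' deposited table. OST3 lay at -0.02 there, with a log2 footprint level of 12.40 in ded1-ts and 12.64 in DED1-TS. No member passed 2-fold, beside 13.3% of 5222 genes in footprints, 7.33% in mRNA and 9.23% in translational efficiency, each in either direction.

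The effects at 37 °C and 15 °C share no library, and temperature, allele and experiment cannot be told apart between them. For translational efficiency, the ded1-ts effect minus the ded1-cs effect was 2.40 for OST1, the 99.5 percentile of 5068 genes, and 1.85 for OST3, the 97.2 percentile. WBP1 at 1.38, SWP1 at 1.26 and OST6 at 0.87 also had positive differences. The small subunit genes had negative ones, -0.08 for OST2, -0.28 for OST4 and -0.61 for OST5. With columns set to equal totals, efficiency shifts by -0.59 for every gene in ded1-cs and by -0.07 in ded1-ts. That raises every difference, so those of OST2 and OST4 turn positive. None of these differences was tested. The footprint ratio of OST2 over WBP1 stood at -0.87 on the log2 scale in ded1-ts over DED1-TS and at 0.94 in ded1-cs over DED1-CS, with the mRNA ratio at -0.63 in ded1-ts and -0.28 in ded1-cs.

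With hcDBP1 in ded1-ts, the footprints of OST1, OST3, OST5 and SWP1 lay between 0.01 and 0.13 against DED1-TS in the authors' deposited table, and those of the other 4 between -0.38 and 0.55. In mRNA all 8 members lay below 0, between -0.51 and -0.10, and OST1, OST3, OST4 and OST6 lost that sign with equal column totals. OST1 had a log2 footprint level of 13.37 in the hcDBP1 strain, against 13.31 in DED1-TS, and OST3 had 12.75 in the hcDBP1 strain, against 12.74 in DED1-TS. OST4 had 11.13 in the hcDBP1 strain, against 10.58 in DED1-TS, and WBP1 had 13.68 in the hcDBP1 strain, against 13.38 in DED1-TS. In translational efficiency the authors' deposited table gives 0.71 for OST4, the 95.9 percentile, 0.50 for WBP1, 0.47 for SWP1, 0.33 for OST5 and -0.23 for OST6. OST1 at 0.22, OST2 at 0.16 and OST3 at 0.11 lost their positive sign with equal column totals. None of the 8 passed 2-fold, beside 2.92% of 5208 genes in footprints, 2.28% in mRNA and 3.86% in translational efficiency.

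Against ded1-ts, the hcDBP1 strain had OST1 at 0.54 in translational efficiency, the 92.9 percentile, by difference of the deposited changes, and at 0.51 in footprints. OST1 was thus the member with the highest value from hcDBP1 at both temperatures, 0.54 at 37 °C and 1.19 at 15 °C. The other members lay between -0.20, for OST2, and 0.20, for OST6. None passed 2-fold, beside 2.90% of 5214 genes in footprints, 1.02% in mRNA and 1.59% in translational efficiency.

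In dbp1Δ the footprints of the members were close to those of the WT of its table, between -0.20 and 0.23 in the authors' deposited table. DED1 mRNA stood at -2.63 in the same comparison, so the strains differed in DED1 level as well as in DBP1. Several members had more mRNA. OST3 mRNA stood at 1.16, OST5 at 0.75, OST4 at 0.67, SWP1 at 0.41 and OST1 at 0.37 in the authors' deposited table, against -0.11 for OST6 and -0.06 for OST2. Their translational efficiency was therefore negative, -0.93 for OST3 (the 2.5 percentile of all genes), -0.86 for OST4 (the 3.13 percentile) and -0.55 for OST5, in the authors' deposited table. OST3 and OST6 parted here in mRNA more than in footprints, the mRNA ratio of OST3 over OST6 being 2.40-fold and the footprint ratio 1.16-fold that of WT. One of 8 members, OST3, was higher in mRNA, beside 4.30% of 4971 genes. None passed 2-fold in footprints, beside 1.93%, or in translational efficiency, beside 2.21%, each in either direction.

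The double mutant ded1-ts dbp1Δ set against dbp1Δ compares 2 strains without Dbp1 that differ in the ded1-ts allele. They also differed in DED1 mRNA, which stood at 1.67 by difference of the deposited changes. In ded1-ts over DED1-TS it stood at -1.17, so the DED1 level went the other way. OST4 had a log2 footprint level of 9.19 in the double mutant, against 8.43 in dbp1Δ, and OST5 had 9.59 in the double mutant, against 9.20 in dbp1Δ, each from its own table. WBP1 had 11.98 in the double mutant, against 11.56 in dbp1Δ, while OST1 had 10.51 in the double mutant, against 11.44 in dbp1Δ, and OST6 had 8.06 in the double mutant, against 8.96 in dbp1Δ. OST4, OST5 and WBP1 were thus above dbp1Δ, and OST1 and OST6 below it. OST4 had a translational efficiency of 1.19 and OST5 of 1.13 by difference of the deposited changes, the 99.0 and 98.8 percentiles of all genes. OST4 footprints stood at 0.89 and its mRNA at -0.30, and OST5 footprints at 0.52 and its mRNA at -0.61, so lower mRNA entered both. These 2 of 8 members were higher, beside 2.19% of 4983 genes. OST5 at 0.94 fell short of 2-fold with equal column totals. WBP1 followed at 0.81, and OST6 at -0.77 and OST1 at -0.49 were at the low end, as in ded1-ts over DED1-TS. The footprint ratio of OST4 over OST6 was 3.16-fold higher in the double mutant than in dbp1Δ, and 2.41-fold higher in ded1-ts than in DED1-TS. None of the 8 passed 2-fold in footprints, beside 15.3%, or in mRNA, beside 7.12%.

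These values assume that the tables of both strains share a WT. A direct difference of the levels of both strains, centred on all genes and added after the values were seen, needs no WT and left the members' counts as they were. In translational efficiency, the effect of ded1-ts with dbp1Δ minus that with DBP1 was 0.64 for OST5 and 0.61 for OST4. It was 0.30 for OST3, 0.20 for WBP1, -0.02 for SWP1, -0.17 for OST1, -0.34 for OST6 and -0.45 for OST2. The effects with and without DBP1 come from different experiments that share no library, so DBP1 and experiment cannot be told apart. The difference was not tested.

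Against the WT of its table, the double mutant had WBP1 at 0.75, OST5 at 0.58 and OST4 at 0.33 in translational efficiency, and OST1 at -0.72, OST6 at -0.66 and OST3 at -0.64, in the authors' deposited table. OST2 at -0.22 and SWP1 at 0.02 lay between. OST3 was low there with more mRNA, 0.88, and footprints of 0.24 in the authors' deposited table, while OST1 and OST6 were low in footprints, at -0.66 and -0.76, with mRNA at 0.06 and -0.11. None passed 2-fold, beside 18.0% of 5007 genes in footprints, 14.9% in mRNA and 12.9% in translational efficiency. This comparison and the one of dbp1Δ share that WT.

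Across the 6 deposited changes in translational efficiency, the genes nearest to OST1 were not other subunits. By root mean square distance over these 6 values among 4911 genes, SFB3, a Sec24-related coat protein of transport vesicles, was nearest at 0.21. LSC1, a mitochondrial succinyl-CoA ligase subunit, followed at 0.22, the Rab GTPase-activating protein GYP1 at 0.24, the kinase RIM11 at 0.26 and the mitochondrial ribosomal protein MRPL7 at 0.26. Of the members, OST3 ranked 139 at 0.50 and OST6 380 at 0.65, SWP1 ranked 1026 and WBP1 1561. OST2, OST4 and OST5 lay at 1.63, 1.85 and 1.95. The 6 values share WT libraries within each experiment, so they are not independent.

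The other steps of N-glycosylation were read from lists of genes. Of 20 analysed genes that assemble the lipid-linked sugar chain, 10 were lower and 1 higher in translational efficiency in ded1-cs. The median was -0.83 for the subunit genes, against -0.98 for that list and 0.10 for all genes, of which 21.9% were lower and 16.4% higher. Of that list, the dolichol kinase gene SEC59 stood at -1.81 and ALG5, which makes the glucose donor, at -1.81, while DPM1, the dolichol phosphate mannose synthase, stood at 1.19. Of 8 genes for glycan trimming in the ER, 2 were lower, the glucosidase gene CWH41 at -1.92 and the mannosidase-like MNL1 at -1.46, and 0 higher.

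The translocon and signal peptidase list, whose products work beside OST on the same nascent chains, had calls in both directions. Its median translational efficiency in ded1-cs was 0.76, on the other side of 0 from that of the subunit genes. Of its 13 analysed genes, 4 were lower and 4 higher in ded1-cs, with SSH1 at -2.87, the channel gene SEC61 at -2.41 and SEC62 at -1.96, against SEC72 at 1.55, SEC66 at 1.44 and the signal peptidase subunit SPC1 at 1.37. Of 7 genes for sugar donors, 2 were lower (GFA1 at -1.88 and SEC53 at -1.61) and GNA1 at 1.02 was higher. Of 5 analysed O-mannosyltransferase genes, 0 passed 2-fold. Beside these lists, 21.9% of all 5076 genes were lower and 16.4% higher in translational efficiency in ded1-cs over DED1-CS. PMT2, PMT5 and SEC11 were not analysed here.

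In ded1-ts, 1 of 21 genes of sugar chain assembly was higher in translational efficiency (SRT1 at 1.26) and 1 was lower. Of all 5222 genes, 149 were higher and 333 lower, and the median of the list was near 0. Of 13 translocon and signal peptidase genes, SSH1 at -1.16 was lower, and SPC3 at 1.13 and SSS1 at 1.06 were higher. Over all 5222 genes, 333 were lower and 149 higher. SPC3 had footprints at 0.21 and mRNA at -0.91, and SSS1 had footprints at 0.00 and mRNA at -1.06. Lower mRNA thus made up most of both values. Of the lists for trimming, sugar donors and O-mannosylation, 0 genes passed in translational efficiency. For the subunit genes the median there was 0.36, against 0.08 for all genes.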

How the data were processed

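Per the labels, footprints were made with RNase I from cycloheximide-treated cells. Per the submitters' processing notes, the tools were TopHat2 2.1.0, Bowtie2 2.6.0, DESeq2 and CASAVA 1.8, with build sacCer2 and no role or order given. The authors deposited log2 levels and log2 changes in 6 tables, each pooling 2 libraries per strain and assay and scaled on its own. The tables do not name the base of the logarithm, and 2 was assumed from how large the values are. Deposited translational efficiency equals footprint minus mRNA change. Some level columns are rounded, so that subtracting them misses a deposited change by as much as 0.0997, and results use the changes. The tables hold 4 level columns that match no sample, and these were not used.

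Of the 9 comparisons, 6 are deposited changes, and 3 are differences of changes with a shared WT. Genes entered when their average level, taken on the log2 scale over both strains of each change used, reached 50 in both assays (in the dbp1Δ experiment the WT level enters as mutant level less change). Tests planned for values per library, and DESeq2 or edgeR as alternatives, could not be run on pooled values, so the 2-fold rule stands in. Code was tested on simulated data (Python 3.11.15, pandas 2.3.3). Of 5446 IDs, 5444 matched a symbol in the R64 reference, which gave names and neighbours only. Planned levels per length, protein features and the genes nearest to STT3 were not computed. Named genes are the 8 members, DED1, DBP1, the 5 genes nearest to OST1, and up to 3 list genes per direction past 2-fold in ded1-cs or ded1-ts, of which 1 is not reported here. Members and lists were chosen with earlier results of these data known.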

Additional observations from a re-analysis of the deposited data

How the results depend on the processing

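With columns set to equal totals, ded1-cs over DED1-CS had 0 members higher and a median of -1.41 in footprints, and 0 higher, 5 lower and a median of -1.43 in translational efficiency, with an mRNA median of 0.01. In ded1-cs hcDBP1 over DED1-CS the same scaling gave 0 members higher in footprints and an mRNA median of 0.00. In ded1-ts over DED1-TS it gave a footprint median of 0.03. In ded1-ts hcDBP1 over ded1-ts it gave medians of -0.08 in footprints, -0.01 in mRNA and -0.04 in translational efficiency. In ded1-ts dbp1Δ over dbp1Δ it gave 1 member higher in translational efficiency, as did a level minimum of 200. Median centring gave 1 member higher in footprints for ded1-cs and 0 for ded1-cs hcDBP1 over DED1-CS. Level differences gave an mRNA median of 0.05 for ded1-cs hcDBP1 over DED1-CS. The level minimum of 200 took OST4, at a mean mRNA level of 115, out of its comparison, and the other shifts follow from the scaling or the rounding itself.

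At 1.5-fold, the counts given here are those that rose from none or to more than 1.5 times the count at 2-fold. Other counts are left out. Translational efficiency had 2 members higher and 5 lower in ded1-cs, 3 higher in ded1-cs hcDBP1 over DED1-CS and 2 higher over ded1-cs. It had 1 higher in ded1-ts and 1 in ded1-ts hcDBP1 over DED1-TS. It had 2 lower in dbp1Δ, 1 higher and 3 lower in the double mutant over WT, and 1 lower over dbp1Δ. In footprints 2 were higher in ded1-cs hcDBP1 over ded1-cs, 1 higher and 1 lower in ded1-ts, 3 higher and 2 lower in the double mutant over WT, and 1 higher and 2 lower over dbp1Δ. In mRNA 1 was lower in ded1-ts, 3 higher in dbp1Δ, 1 higher in the double mutant over WT and 1 lower over dbp1Δ. Dropping the level minimum left all 54 counts as they were. No called member changed sign under the scalings run. No paired analysis was possible because each deposited value pools both libraries, and for the same reason no replicate was left out. The order of members by level per codon was not run, for want of coding lengths of the files' build, nor equal totals for the comparisons with the WT of the dbp1Δ experiment, whose level columns were not used.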

Other observations

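The sugar donor genes stood low in mRNA in ded1-ts and in ded1-ts dbp1Δ, which the account of the subunit genes does not cover. In ded1-ts over DED1-TS 4 of 7 were lower in mRNA, with a median of -1.09, beside 167 of all 5222 genes. In footprints 3 of 7 were lower there, with a median of -0.94, beside 347 of all 5222 genes. In ded1-ts hcDBP1 over DED1-TS 0 of 7 were lower in mRNA, with a median of -0.67, beside 31 of all 5208 genes. In dbp1Δ over its WT 0 of 7 were lower in mRNA, with a median of -0.27, beside 65 of all 4971 genes. With so few genes lower in both comparisons, a count of 0 of 7 says little about the list. In ded1-ts hcDBP1 over ded1-ts their footprint median was 0.64, with 2 of 7 higher, beside 121 of all 5214 genes. In ded1-ts dbp1Δ over dbp1Δ 4 of 7 were lower in footprints, with a median of -1.02, beside 426 of all 4983 genes. In mRNA 4 of 7 were lower there, with a median of -1.09, beside 182 of all 4983 genes. None of these differences was tested.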
